A study of Mus musculus with 6 samples.

Results

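The cytosolic ribosomal protein genes were defined here as the genes with an Rpl or Rps symbol made of that stem and a number, with or without a letter or paralog ending, together with Rplp0, Rplp1, Rplp2 and Rpsa. By this rule 86 of the 43432 gene identifiers in the count tables were members, 50 of the large subunit, 33 of the small subunit and 3 of the stalk. The injured group (SCI) was spinal cord of 3 wildtype C57BL/6 mice, collected 4 h after a blow to one side of the cord at cervical level 5, delivered with an Infinite Horizon impactor at 50 kdyn. The sham group was spinal cord of 3 wildtype C57BL/6 mice with a laminectomy, which removes bone over the cord and leaves the cord without a blow. The sources used here give neither the time at which sham cords were taken nor the age of the mice. Libraries were made with the QuantSeq Forward kit, a 3′ method primed on poly(A) that counts reads near the 3′ end of transcripts, so that counts do not scale with transcript length.

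Ribosomal proteins surround and fold the ribosomal RNA of the small subunit, which reads the mRNA, and of the large subunit, which joins amino acids. The acidic stalk of the large subunit, built of Rplp0, Rplp1 and Rplp2, recruits the translation factors that drive each step. Their mRNAs are abundant in all cells and begin with a 5′ terminal oligopyrimidine tract (TOP), a C at the cap followed by a run of C and T, through which mTOR and the RNA-binding protein LARP1 set their translation. TOP control acts on translation and mRNA stability, and a count table shows only the mRNA. The comparison asks whether the mRNA levels of this set differed between SCI and sham cord.

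Total counts were 5364263 to 8229961 in the SCI libraries and 3407176 to 11543633 in the sham libraries. A count of 3, the limit that a count of 0 allows, was worth from 0.289 to 0.813 CPM (counts per library total, scaled by the trimmed mean of M-values, TMM), with counting error alone in that limit. Markers of neurons, oligodendrocytes and astrocytes were counted in every library, with Nefl at 1831 to 1936 CPM in SCI and 1713 to 2380 CPM in sham cord. A list of 20 hepatocyte markers, which mark a cell type that the labelled tissue lacks, held 6.997%, 6.82% and 6.74% of the counts in SCI libraries 1 to 3 and 7.20%, 10.4% and 5.44% in sham libraries 1 to 3. All 5 erythroid markers rose (edgeR quasi-likelihood test, largest adjusted p = 0.0351), and their summed share was 0.169% to 0.403% in SCI and 0.0660% to 0.0842% in sham libraries. The part of the erythroid markers in the members' fold changes was not tested. The hepatocyte level was fitted as a covariate only as an alternative. In that fit 0 members were called, with a median log2 fold change of 0.08 and 55 of 80 positive. SCI 3 stood apart from the other libraries in many members. Leaving it out moved the log2 fold change of 29 of 39 named members by over 1.5 times, against 15 to 24 of 39 for each of the other libraries, and values without single libraries are given beside many of the members. Most of the values given there lessen the change, and ranges for many members are given with the sensitivity of the results. In bulk tissue, fewer cells of a type and less RNA per cell cannot be told apart.

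RefSeq promoter windows (GRCm38.p6) were found for 63 members. Of these, 13 (20.6%) had a C followed by at least 4 bases that were each C or T. The tract began exactly at an annotated start on the transcribed strand, and a gene with several starts counted if any matched. Among 27025 genes with a window, 3.01% had such a tract. The starts of 5 members with a tract and of 2 without are shown to make this TOP feature visible, chosen for their range of tract lengths, Rps6 for its role, and Rpl10a and Rps23 as the members with the highest and lowest fold change. Each line runs from 5 bases before the annotated start through its first 20 bases, and capitals mark the tract.
Rpl15 (chr14:18270967-18270991, minus strand): gccttCTTCCTTTCCTCTggcggca
Rps10 (chr17:27635225-27635249, minus strand): cgcccCTTCCTTTCCagcctccgcc
Rps6 (chr4:86857348-86857372, minus strand): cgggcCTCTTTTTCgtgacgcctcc
Rpl38 (chr11:114668575-114668599, plus strand): tcgttCTTTCCCCgttctcttcggt
Rps21 (chr2:180257374-180257398, plus strand): ccgccCTCCTgcccaatagtgctgc
Rpl10a (chr17:28328466-28328490, plus strand): cccagcggccgcaaactgcagcgcc
Rps23 (chr13:90923117-90923141, plus strand): gggcggggcttcccgcaatgccttg
The tract at the start ran for 13 bases in Rpl15, 10 in Rps10, 9 in Rps6, 8 in Rpl38 and 5 in Rps21. A run of at least 8 C or T bases within 30 bases of an annotated start was present in 35 members (55.6%). Of all genes with a window 25.8% had one, and these counts can include the same bases. A match describes these letters only, and an annotated start can lie some bases from the start the cell uses. The 13 members with a tract at the start had a median log2 fold change of 0.12 (9 positive), and the 46 tested members with a window and no tract 0.03 (28 positive).

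Summed over all members, ribosomal protein genes took 1.17%, 1.27% and 1.14% of the counts in SCI libraries 1 to 3, against 1.14%, 1.09% and 1.12% in sham libraries 1 to 3. The SCI libraries lay above the sham libraries by little (1.19% ± 0.0646 in SCI and 1.11% ± 0.0259 in sham cord, SD, n = 3 each), with a difference of 0.0798 percentage points. Without SCI 2 the difference was 0.0433 percentage points. Against TMM-scaled library sizes, the shares were 1.17%, 1.19% and 1.22% in SCI libraries 1 to 3 and 1.13%, 1.21% and 1.04% in sham libraries 1 to 3, and the groups overlapped. With hepatocyte, erythroid and mitochondrially encoded counts left out of the totals, the mean share was 1.52% in SCI and 1.45% in sham cord.

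The large subunit genes held 0.557%, 0.602% and 0.532% of counts in SCI libraries 1 to 3 and 0.540%, 0.511% and 0.540% in sham libraries 1 to 3, so that the groups overlapped. Small subunit genes held nearly the same share, with 0.556%, 0.602% and 0.554% in SCI and 0.542%, 0.526% and 0.526% in sham libraries 1 to 3. The 3 stalk genes held 0.0590%, 0.0629% and 0.0588% in SCI and 0.0540%, 0.0491% and 0.0567% in sham libraries 1 to 3. For the small subunit and the stalk every SCI library lay above every sham library, by margins smaller than the range within the SCI group. These shares describe libraries and were not tested.

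**Figure D1:**
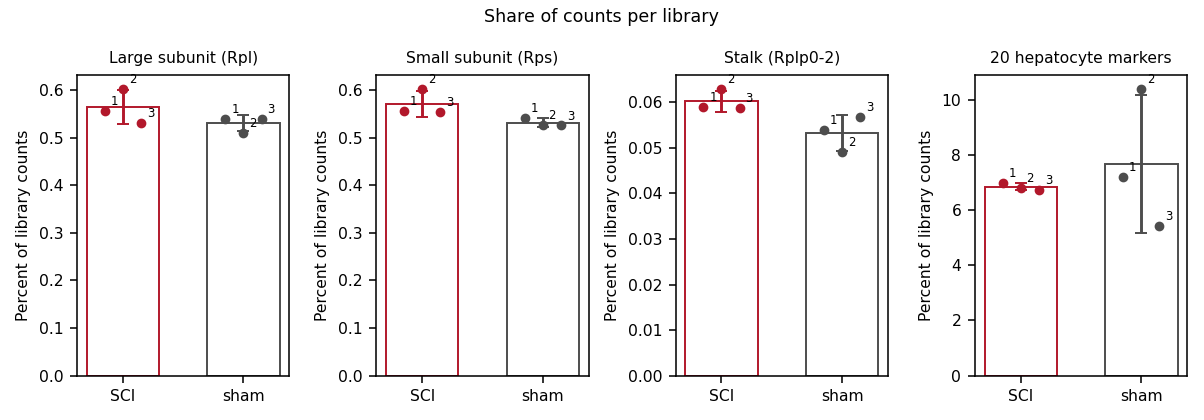
Share of each library's counts in large subunit, small subunit and stalk genes and in 20 hepatocyte markers, for SCI (left, red) and sham (right, grey). Points are libraries numbered 1 to 3, bars are means from 0 and error bars are SD over 3 libraries. SCI 2 had the highest member shares, and sham 2 the highest hepatocyte share at 10.4%.

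Of the 86 members, 80 passed the filter on low counts and were tested, among 13560 genes in all. None of the 80 was called higher or lower in SCI cord at an adjusted p under 0.05 (edgeR quasi-likelihood test, Benjamini-Hochberg adjustment over all genes tested), while 0.929% of all genes tested were called, 0.885% higher and 0.0442% lower. The smallest adjusted p of a member was 0.582 (edgeR), and 3 of 80 had an unadjusted p under 0.05, against 7.38% of all genes. DESeq2's Wald test and limma voom also called 0 members, each with 3 at an unadjusted p under 0.05. Over all genes the number called was 126, and it was 63 without sham 1.

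The fitted log2 fold changes (SCI over sham) were narrow. Their median was 0.07 and their range -0.65 to 0.78, beside a median of -0.00 over all genes tested. The change was positive for 53 of 80 members, against 49.7% of all genes, with 29 of 45 in the large subunit, 21 of 32 in the small subunit and 3 of 3 in the stalk. The median was 0.02 without sham 3, 0.03 without sham 1 and 0.11 without sham 2. The median standard error was 0.20, against 0.25 over all genes. For 74 of 80 members the 95% interval stayed within -1 and 1, which leaves out a 2-fold difference in either direction. The other 6 were Rpl10, Rpl7a, Rpl10a, Rps6, Rps16 and Rps23, each at a mean under 20 CPM.

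**Figure D2:**
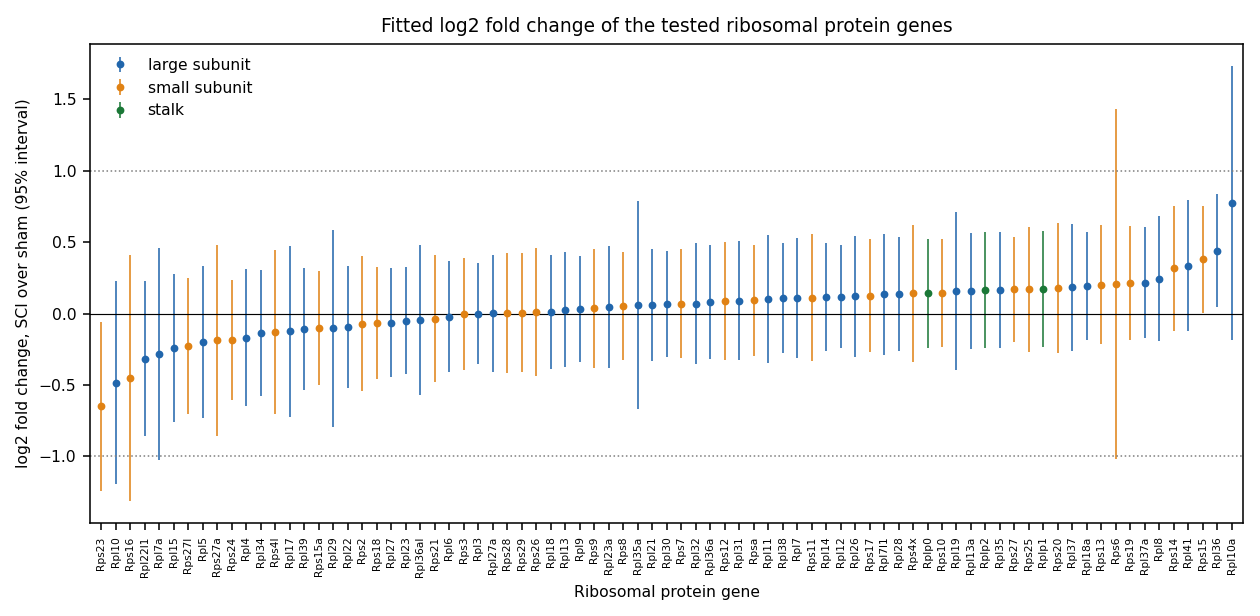
Fitted log2 fold change of SCI over sham (vertical axis) for 79 tested ribosomal protein genes in order (horizontal axis), coloured by subunit. Points are edgeR estimates, vertical lines 95% intervals, and dotted lines mark -1 and 1. Nearly all intervals cross 0, and 6 reach a dotted line.

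Among members whose 3 SCI libraries all lay on one side of the 3 sham libraries, 11 of 80 (13.75%) were higher in SCI, against 7.73% of all genes tested, and 1 of 80 (1.25%) was lower, against 5.94%. The 11 were Rpl8, Rpl10a, Rpl13a, Rpl36, Rpl37, Rplp1, Rps10, Rps14, Rps15, Rps19 and Rps27, and the lower one was Rps23. None of the 12 passed the test over all genes.

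Rpl37, a zinc-binding protein of the large subunit (chr15:5116645-5119140, plus strand), had the highest level of all members. It had 568, 584 and 669 CPM in SCI libraries 1 to 3, against 540, 539 and 524 CPM in sham libraries 1 to 3. The groups did not overlap, and the log2 fold change was 0.18 ± 0.21 (SE), with an adjusted p of 0.926 in edgeR's quasi-likelihood test, and 0.0992 without SCI 3. Rps21 of the small subunit had 481, 505 and 410 CPM in SCI and 465, 515 and 450 CPM in sham libraries 1 to 3, and its groups overlapped (log2 fold change -0.04 ± 0.21, and 0.0387 without SCI 3). In Rps20, the last 300 bases of the 1 transcript chosen held no stretch of 50 bases found in another gene. Rps20 had 420, 454 and 489 CPM in SCI and 429, 452 and 324 CPM in sham libraries 1 to 3, with sham 3 the low one (0.18 ± 0.21, and 0.0436 without sham 3).

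Rps26, which lies at the mRNA exit of the small subunit, had 423, 418 and 427 CPM in SCI and 434, 482 and 343 CPM in sham libraries 1 to 3. Its SCI libraries were close together and lay inside the sham range, with a log2 fold change of 0.01 ± 0.21, and -0.12 without sham 3. Rps14 had 401, 383 and 494 CPM in SCI against 359, 330 and 336 CPM in sham libraries 1 to 3, with no overlap. Its log2 fold change was 0.32 ± 0.20 and its adjusted p 0.825 (edgeR quasi-likelihood test), and the change was 0.19 without SCI 3. Rpl23a, a protein beside the exit of the nascent chain, had 365, 348 and 414 CPM in SCI and 380, 363 and 349 CPM in sham libraries 1 to 3 (0.05 ± 0.20, and -0.0394 without SCI 3). Rps29 had 351, 366 and 351 CPM in SCI and 354, 378 and 331 CPM in sham libraries 1 to 3, and the groups overlapped (0.01 ± 0.20, and -0.0409 without sham 3).

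Rpl8, which sits near the peptidyl transferase centre, had 345, 356 and 408 CPM in SCI libraries 1 to 3, against 343, 331 and 262 CPM in sham libraries 1 to 3. The groups did not overlap, although SCI 1 and sham 1 nearly met, and the log2 fold change was 0.25 ± 0.21. It was 0.16 without SCI 3 and 0.13 without sham 3. Rpl4, part of which lines the exit tunnel, had 336, 372 and 233 CPM in SCI and 341, 405 and 312 CPM in sham libraries 1 to 3, with SCI 3 the lowest of all 6 (-0.17 ± 0.22, and -0.00348 without SCI 3). These genes, all among the 10 most abundant members, are given in the order of their levels. Rpl37 lay above Rps21 across all libraries, and every later pair of neighbours among those given overlapped.

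At the upper end of the fold changes stood a rarely counted gene. Rpl10a, a large subunit protein at the side where spent tRNA leaves (chr17:28328471-28331033, plus strand), had 3.02, 1.88 and 2.78 CPM in SCI libraries 1 to 3, against 1.44, 1.44 and 1.63 CPM in sham libraries 1 to 3. It had 84 counts in all 6 libraries together, and 86.9% of the 50-base words in its last 300 transcript bases also occurred in another gene. Its log2 fold change was 0.78 ± 0.45 with a 95% interval of -0.18 to 1.73.

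Rpl36 (chr17:56613416-56614243, plus strand) had 35.1, 39.3 and 48.4 CPM in SCI libraries 1 to 3, against 31.1, 29.0 and 30.1 CPM in sham libraries 1 to 3, without overlap. Its log2 fold change was 0.44 ± 0.19, with an adjusted p of 0.582 in the edgeR quasi-likelihood test, and it was 0.30 without SCI 3. Rps15 (chr10:80292453-80294114, plus strand), whose tail reaches the decoding region, had 130, 136 and 152 CPM in SCI and 115, 103 and 104 CPM in sham libraries 1 to 3, again without overlap (0.38 ± 0.18, edgeR adjusted p = 0.668). Rpl41, a very short and basic peptide, had 37.1, 43.0 and 60.5 CPM in SCI and 30.5, 36.3 and 45.0 CPM in sham libraries 1 to 3, with overlap (0.34 ± 0.22, 0.11 without SCI 3 and 0.19 without sham 1). Without SCI 1 the Rpl41 value was 0.48. Of the 50-base words in their windows, 89.2% for Rpl36, 55.8% for Rps15 and 62.9% for Rpl41 also occurred in another gene. Among the sharing genes, Rpl36-ps2 had 586 counts against 1455 for Rpl36, and Gm10076 had 1080 against 1685 for Rpl41. In all 4 of Rps14, Rpl36, Rps15 and Rpl41, SCI 3 was the highest of the 6 libraries.

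Rps23, a protein of the decoding centre (chr13:90922958-90924950, plus strand), had the lowest fold change and was the member whose SCI libraries all lay below the sham libraries. It had 12.1, 11.5 and 5.75 CPM in SCI libraries 1 to 3, against 12.6, 16.1 and 18.7 CPM in sham libraries 1 to 3. SCI 1 and 2 nearly met sham 1, and SCI 3 stood lowest. The log2 fold change was -0.65 ± 0.28, with a 95% interval of -1.24 to -0.06 and an edgeR adjusted p of 0.602, and it was -0.41 without SCI 3. Without SCI 1 it was -0.83. Its last 300 transcript bases had 32.0% G and C, the lowest of all tested members.

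Rpl10, which joins the large subunit late in its maturation, had 10.9, 8.23 and 5.35 CPM in SCI and 6.43, 15.2 and 13.3 CPM in sham libraries 1 to 3 (-0.49 ± 0.33). Rps16, whose tail touches the tRNA in the P site, had 5.56, 4.91 and 1.98 CPM in SCI and 3.68, 5.78 and 8.68 CPM in sham libraries 1 to 3 (-0.45 ± 0.40, and -0.16 without either SCI 3 or sham 3). Rpl7a of the large subunit had 10.5, 11.8 and 5.75 CPM in SCI and 6.04, 16.7 and 11.7 CPM in sham libraries 1 to 3 (-0.28 ± 0.35, -0.0596 without SCI 3 and 0.16 without sham 2). All 3 overlapped between groups, and in each of them SCI 3 was the lowest library. Without SCI 3 the log2 fold change of Rpl10 was -0.29, without sham 2 it was -0.19, and without sham 1 it was -0.80. Without sham 1 that of Rps16 was -0.73.

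The 3 stalk genes had similar fold changes. Rplp0, which anchors the stalk to the ribosomal RNA, had 97.2, 109 and 120 CPM in SCI and 96.2, 110 and 88.1 CPM in sham libraries 1 to 3 (log2 fold change 0.14 ± 0.18, and 0.0585 without SCI 3). Rplp1 had 330, 335 and 304 CPM in SCI against 290, 274 and 296 CPM in sham libraries 1 to 3, with no overlap (0.17 ± 0.19). Rplp2, its partner in the stalk dimers, had 160, 147 and 201 CPM in SCI and 152, 162 and 140 CPM in sham libraries 1 to 3, with overlap (0.16 ± 0.19, and 0.0142 without SCI 3). Rplp1 was counted at a higher level than Rplp2 in every library. Reads of Rplp1 may be divided with a processed pseudogene, since Gm11942 held 28473 counts over 6 libraries against 12726 for Rplp1 and shared 23.5% of the 50-base words of its 3′ window.

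Among members with known roles beside the ribosome, Rps6, the substrate of the S6 kinases, was the least counted of the tested members. It had 1.81, 1.15 and 2.18 CPM in SCI and 1.84, 0.578 and 2.44 CPM in sham libraries 1 to 3. Its log2 fold change of 0.20 ± 0.58 had an interval from -1.02 to 1.43 and was -0.30 without sham 2. Of the 50-base words in its window, 83.3% occurred in another gene, and the sharing genes held 97 counts against 63 for Rps6. The low count of Rps6 is not read here as its mRNA level, and its cause was not tested. Rpl5 and Rpl11, which form a particle with 5S ribosomal RNA and can hold the p53 regulator MDM2, differed in sign. Rpl5 had 36.0, 28.6 and 19.6 CPM in SCI and 22.8, 40.2 and 34.4 CPM in sham libraries 1 to 3 (-0.20 ± 0.25, and -0.0171 without SCI 3). Rpl11 had 136, 137 and 94.4 CPM in SCI and 122, 90.1 and 132 CPM in sham libraries 1 to 3 (0.10 ± 0.21, and -0.0586 without sham 2). For both genes SCI 3 was below the other SCI libraries, and the groups overlapped.

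Rpsa, also known as a laminin receptor, had 64.6, 72.8 and 81.7 CPM in SCI and 64.5, 80.4 and 59.6 CPM in sham libraries 1 to 3 (0.09 ± 0.18, and -0.00432 without SCI 3). Rps27a, made as a fusion with ubiquitin, had 20.2, 20.4 and 9.12 CPM in SCI and 11.4, 22.3 and 24.1 CPM in sham libraries 1 to 3 (-0.19 ± 0.31, and 0.0773 without SCI 3). The X-linked Rps4x had 16.8, 16.0 and 13.9 CPM in SCI and 11.2, 14.7 and 17.1 CPM in sham libraries 1 to 3 (0.14 ± 0.23, and -0.0286 without sham 1). All 3 overlapped between groups.

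The paralogs, whose symbols end in l or in l and a digit, were 10 genes, of which 5 were tested. Rps27l, a paralog of Rps27 induced by p53, was the highest, with 155, 150 and 158 CPM in SCI and 173, 241 and 127 CPM in sham libraries 1 to 3. Its log2 fold change was -0.23 ± 0.22, and 0.0293 without sham 2, beside 0.17 ± 0.17 for Rps27, which had 126, 129 and 142 CPM in SCI and 113, 122 and 118 CPM in sham libraries 1 to 3. Every 50-base word of the Rps27 window occurred in another gene. Rpl22l1 had 43.8, 50.2 and 21.2 CPM in SCI and 42.9, 55.6 and 45.5 CPM in sham libraries 1 to 3, with SCI 3 far below the rest. Its log2 fold change was -0.32 ± 0.25, and -0.04 without SCI 3, beside -0.09 ± 0.20 for Rpl22, its partner gene that is known to repress it in mouse. Without SCI 2 the Rpl22l1 value was -0.55.

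Rpl7l1 had 24.5, 28.3 and 30.1 CPM in SCI and 27.3, 27.2 and 20.1 CPM in sham libraries 1 to 3, with a log2 fold change of 0.14 ± 0.20, beside 0.11 ± 0.20 for Rpl7 with 257 CPM in SCI and 238 CPM in sham cord on average. Without sham 3 these were 0.0150 for Rpl7l1 and 0.00184 for Rpl7. Rps4l, annotated as a transcribed processed pseudogene, had 8.58, 15.7 and 13.3 CPM in SCI and 14.4, 15.9 and 9.76 CPM in sham libraries 1 to 3 (-0.13 ± 0.27, and 0.0966 without SCI 1). Rpl36al had 7.80 to 9.43 CPM in SCI and 8.13 to 9.44 CPM in sham libraries (-0.05 ± 0.25), beside 0.08 ± 0.19 for Rpl36a. The groups of all 3 paralogs overlapped.

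The other paralogs were too low to test. Rpl10l, a paralog of Rpl10 used in the testis, had 0 counts in all 6 libraries. Rpl39l, which is also a testis gene, had 1 count in SCI 2 and 1 in sham 3. Rpl3l, the striated muscle paralog of Rpl3, had 7, 2 and 4 counts in SCI and 6, 2 and 6 counts in sham libraries 1 to 3. Rpl6l and Rps12l1, annotated as processed pseudogenes, had 18 and 1 counts over all libraries. The parent genes Rpl3, Rpl6, Rpl39 and Rps12 were counted in every library, with log2 fold changes of -0.00 ± 0.17, -0.02 ± 0.18, -0.11 ± 0.20 and 0.09 ± 0.19.

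The sixth member below the filter was Rpl24, a bridge protein between the subunits, which had 3 counts in all 6 libraries. An exon of another gene on the same strand covered 58.3% of its 3′ window, and 81.3% of the 50-base words there occurred in another gene. How the counting treated such reads is not given in the sources used here. Rps10, with 70.3% of its window under such an exon and 67.7% of its words shared, had 165 CPM on average. Rpl36al, at 69.0% and 70.1%, had 8.76 CPM. The low count of Rpl24 is not read here as its mRNA level, and its cause was not tested.

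Tested members ranged from 1.67 CPM for Rps6 to 571 CPM for Rpl37 on average. This was a 342-fold range of counted levels among proteins that the ribosome holds in nearly equal number. Over 100 CPM were 43 members, and 15 tested members were under 20 CPM. At least 1 word of 50 bases in the last 300 transcript bases was shared with another gene for 66 of 86 members, and every word was shared for 8. These windows follow 1 annotated transcript per gene, whose end may not be where its reads fell. The level did not follow the shared proportion closely (Spearman rho -0.16 over 80 genes of the same libraries, a description). Rpl10 had 430 counts in all, while Rpl10-ps3, which holds every 50-base word of its window, had 2118. The 24 tested members with under 20% of words shared had a median log2 fold change of 0.11 (14 positive), and the other 56 a median of 0.06 (39 positive).

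**Figure D3:**
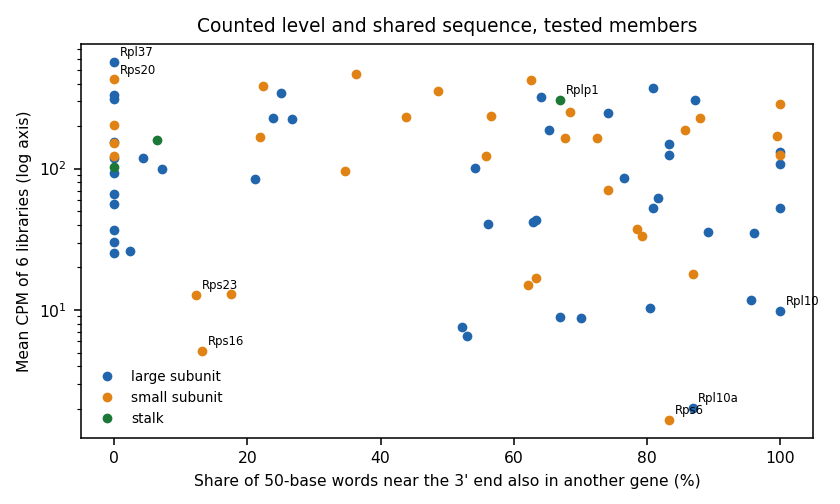
Mean CPM over 6 libraries on a log axis against the percent of 50-base words in the last 300 transcript bases that another gene also holds, for 79 tested members, coloured by subunit. Low levels occur both at 12.4% shared (Rps23) and at 100% shared (Rpl10).

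Of the 6 libraries, SCI 3 spread most widely from member to member, although its median deviation was small. That median was 0.02 in SCI 3, against -0.11 in sham 3 and 0.09 in sham 2. SCI 3 was the highest of the 6 libraries for 31 of 80 members and the lowest for 19. Its SD of log2 deviations from the 6-library mean over members was 0.37, against 0.12 to 0.26 in the other libraries. Members low in SCI 3 relative to SCI 1 and 2 included Rpl17 by -1.31, Rps16 by -1.21, Rpl22l1 by -1.13, Rps27a by -1.11 and Rps23 by -0.98 on the log2 scale, while Rpl41 was higher by 0.59. Sham 3, the library with the fewest counts, was the lowest for 34 members and the highest for 11. SCI 3 also had the highest erythroid share of all libraries at 0.403%. Without SCI 3, 0 members were called and 0 had an unadjusted p under 0.05 (edgeR), with a median log2 fold change of 0.05 and 53 of 80 positive.

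**Figure D4:**
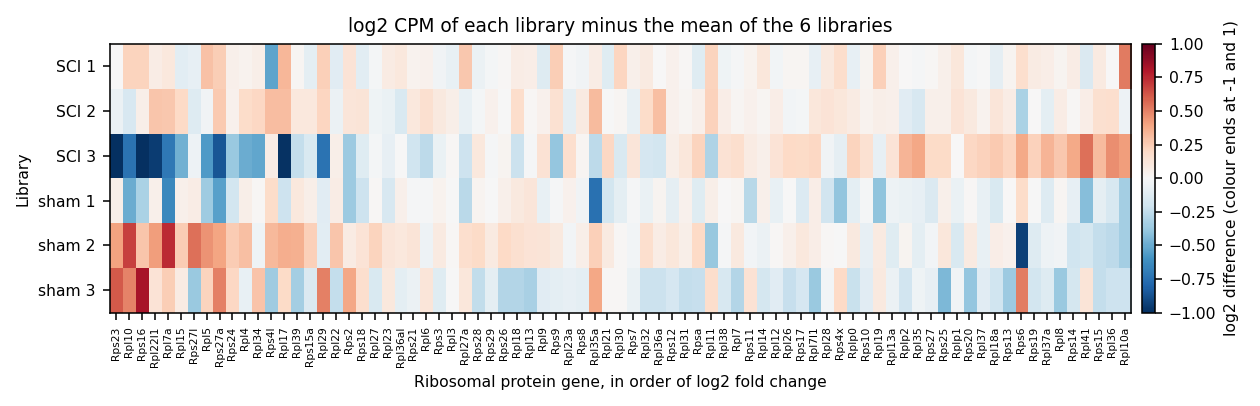
log2 CPM of each library minus the mean of the 6 libraries for 79 tested members, with SCI libraries 1 to 3 above sham libraries 1 to 3 and genes ordered by fold change. Colours end at -1 and 1. SCI 3 carries the strongest colours at both ends, with Rps23 low and Rpl41 high.

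The fold changes moved with base composition. Across the 80 tested members, the log2 fold change was higher at a higher percent of G and C in the last 300 transcript bases (Spearman rho 0.31), and across 13491 tested genes of the same libraries it did so to a like degree (rho 0.29). Of members above the median G and C content, 30 of 38 had a positive change (median 0.10), and of those at or below it 23 of 42 (median 0.03). Without SCI 3 the rho was 0.23 among members and 0.22 among all genes. Each library was also set against the mean of the other libraries of its group. The rho of that deviation with G and C among members was -0.31, -0.11 and 0.27 in SCI libraries 1 to 3. In sham libraries 1 to 3 it was 0.18, -0.31 and 0.02. Over all genes these values were -0.17, -0.00 and 0.12 in SCI and 0.19, -0.01 and -0.10 in sham libraries 1 to 3. These correlations run across genes that share libraries, are descriptions, and were not tested as a cause of the fold changes.

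**Figure D5:**
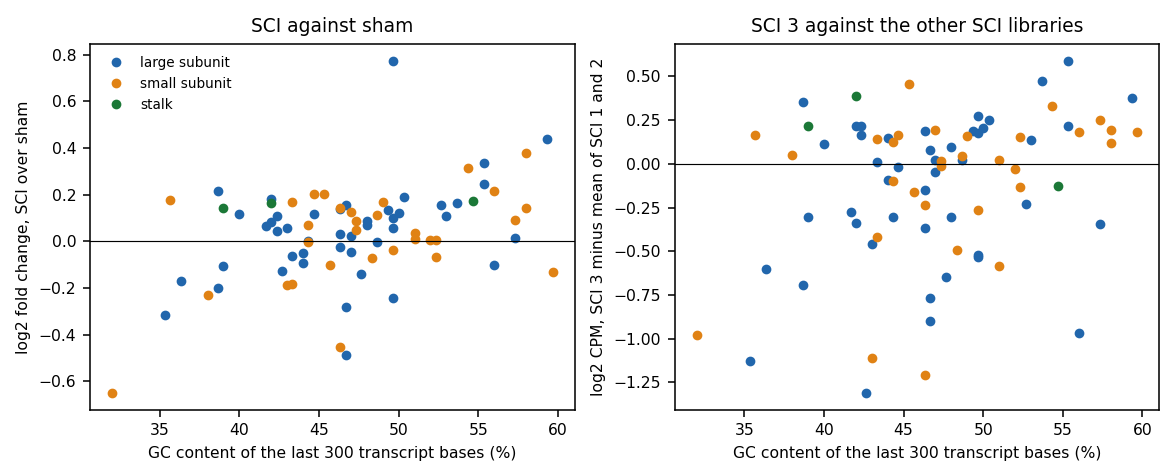
Percent G and C of the last 300 transcript bases (horizontal axis) against the log2 fold change of SCI over sham (left) and against log2 CPM of SCI 3 minus the mean of SCI 1 and 2 (right), for 79 tested members. Rps23, at 32.0% G and C, is the lowest point on the left, and Rpl36 at 59.3% lies near the top.

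Among core ribosomal proteins that the symbol rule leaves out, Rack1 had 188, 184 and 193 CPM in SCI and 163, 202 and 145 CPM in sham libraries 1 to 3 (log2 fold change 0.14 ± 0.19). Fau, which encodes a ubiquitin-like fusion with a small subunit protein, had a log2 fold change of 0.04 ± 0.17 and Rps3a1 of -0.22 ± 0.25. Eef2, the elongation factor that moves the ribosome along and whose mRNA has a TOP tract, had 483, 519 and 541 CPM in SCI and 474, 423 and 413 CPM in sham libraries 1 to 3, with no overlap (0.24 ± 0.20, edgeR adjusted p = 0.893).

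The machinery around the ribosome showed 0 calls as well. Over all genes tested 0.929% were called, a share at which lists of this size can well hold 0. None passed among 18 tested elongation and other TOP mRNAs (median log2 fold change 0.02), 30 translation initiation factors (0.04), 15 genes of RNA polymerase I and its factors (0.06) and 23 genes of mTOR, LARP1 and 4E-BP control (0.02). Among 67 tested ribosome assembly factors 0 were called, with a median of 0.13 and 49 positive, and 5 had an unadjusted p under 0.05 (edgeR). An unadjusted p under 0.05 was also found for 3 of the 30 initiation factors and 3 of the 23 control genes (smallest adjusted p 0.478 and 0.162, edgeR). Over all genes tested 7.38% had an unadjusted p under 0.05 (edgeR). Ncl, nucleolin, had 334, 296 and 374 CPM in SCI and 304, 332 and 338 CPM in sham libraries 1 to 3 (0.04 ± 0.20). Mitochondrial ribosomal proteins, which build the separate ribosome of that organelle, had 0 of 72 called and a median of 0.04 (42 positive), close to the cytosolic set. Of the 9 tested S6 kinase genes 0 were called, with a median of 0.28, Rps6kb1 at -0.19 ± 0.17 and Rps6ka1 at 0.44 ± 0.22.

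Several members serve as reference genes in quantitative PCR, and 3 are given for that reason, outside the naming rule and with their values known. Rpl13a had 323, 323 and 342 CPM in SCI libraries 1 to 3, against 300, 287 and 299 CPM in sham libraries 1 to 3, without overlap (log2 fold change 0.16 ± 0.19, 95% interval -0.25 to 0.57). Rps18 had 34.5, 40.6 and 34.1 CPM in SCI and 32.2, 40.8 and 41.8 CPM in sham libraries 1 to 3, with overlap (-0.07 ± 0.18). Rpl19 had 10.5, 9.24 and 8.33 CPM in SCI and 6.56, 9.44 and 9.49 CPM in sham libraries 1 to 3, with overlap (0.16 ± 0.26). Rps18 shared 78.5% and Rpl19 66.9% of the 50-base words of their windows with other genes.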

How the data were processed

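The authors deposited 1 table per sample of raw read counts per Ensembl gene, not normalized. Per the labels, reads of 50 bases were aligned with STAR 2.7.2b to mm10 (GRCm38, annotation of Ensembl 96), and DESeq2 1.24.0 is among the tools in the submitters' processing notes. How reads were counted (tool, strand, multiple matches, molecular identifiers) is not given in the sources used here, so members with near-identical copies or overlapping genes are uncertain. The series' design text gives 3 mice per group, and each library was taken as 1 mouse. The replicate numbers were not taken as pairs, as described with the sensitivity of the results.

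Genes passed edgeR's filterByExpr by group. Counts were scaled by TMM and tested with edgeR 4.0.16 (quasi-likelihood, robust, R 4.3.3), SCI against sham over all 6 libraries, with Benjamini-Hochberg adjustment over all 13560 genes. CPM uses TMM-scaled library sizes. Alternatives included DESeq2 1.42.0, limma 3.58.1 voom, other scalings and filters, a hepatocyte covariate and leaving out each library. A further alternative added to members the counts of genes outside the set that held at least 20% of a member's 50-base words. Each such gene went to the member it shared most with, and most were not near-identical copies. Gm11942, at 23.5% of Rplp1, held 28473 of the 50923 counts added. Rps12 received 0 such genes and Rps12l1 14. The pipeline was tested on simulated data, with 50 genes changed at each size. At log2 changes of -1 and 1 the test called 50% and 64% of them, and at -2 and 2 it called 86% and 100%. Of unchanged genes 0.0374% were called. A lack of a call therefore does not by itself leave out a 2-fold change. The last 300 bases of 1 transcript per gene came from GENCODE M21, which is also on GRCm38. Where reads fell along transcripts was not examined, so a window may lie away from the end that was counted. The chosen transcript was 3706 bases long for Rps20 and 5130 for Rps15a.

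Named were the 10 most abundant members, the 5 highest and 5 lowest fold changes, the l paralogs with their parent genes, and 9 genes with known roles. A result that falls under this rule is not reported here. Of each other list, called members or otherwise the 2 most abundant were eligible. Members, lists and names were chosen with earlier results of these data known. Marker lists of other cell types gave P2ry12 lower (1 of 6 microglia markers, edgeR adjusted p = 0.0157), 5 of 5 erythroid markers higher, and 0 called among hepatocyte, neuron, oligodendrocyte, astrocyte, endothelium, neutrophil and ependyma markers. The 3 tested neutrophil markers were nonetheless all positive (median log2 fold change 1.09), each with an unadjusted p under 0.05 (edgeR). Summed over the list, neutrophil markers had 45.0 to 61.9 CPM in SCI and 13.8 to 38.7 CPM in sham libraries.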

Additional observations from a re-analysis of the deposited data

How the results depend on the processing

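No member was called in the main test or under any of its alternatives, and the smallest adjusted p of a member under any of them was 0.277, for Rps15 with the hepatocyte level as a covariate (edgeR). The number of genes called over all genes, 126, was 224 with no filter on low counts, 193 with the hepatocyte covariate and 82 under the replicate block, and ranged from 63 to 146 when 1 library was left out. The correlation of deviations within a replicate number was -0.08, -0.07 and -0.17, which with 3 libraries per group cannot exclude a shared batch. Under the replicate block 0 members were called with a median of 0.07. The members' median stayed between 0.02 and 0.11 and the count of positive members between 45 and 59 across these settings. The difference in share was 0.0433 to 0.105 percentage points with 1 library left out, and 0.0473 without the 10 most abundant members. Of 351 values for 39 named genes under settings that keep every library, 349 kept their direction. The log2 fold change of Rpl39 was 0.00879 with the hepatocyte covariate and that of Rpl3 was 0.0152 with total counts, both against the sign of the main value, and the cause was not tested. Leaving out 1 library turned the sign of 24 of 234 values, in 18 genes. Their log2 fold changes with 1 library left out ran over the ranges Rps21 -0.1000 to 0.0387, Rps26 -0.12 to 0.11, Rpl23a -0.0394 to 0.0975, Rps29 -0.0409 to 0.0461, Rpl7a -0.62 to 0.16 and Rpl36al -0.12 to 0.0245. Further such ranges were Rps27l -0.42 to 0.0293, Rps4l -0.34 to 0.0966, Rpl22 -0.22 to 0.0245, Rpl36a -0.0602 to 0.18, Rpl39 -0.27 to 0.0536, Rpl3 -0.0313 to 0.0345 and Rpl6 -0.12 to 0.0797. The last of these 18 genes were Rps4x -0.0286 to 0.26, Rpsa -0.00432 to 0.22, Rps6 -0.30 to 0.54, Rps27a -0.48 to 0.0773 and Rpl11 -0.0586 to 0.25. Among genes that kept their sign, Rpl10 ran from -0.80 to -0.19, Rps23 from -0.83 to -0.41 and Rps16 from -0.73 to -0.16. Rpl22l1 ran from -0.55 to -0.04, Rpl4 from -0.31 to -0.00348 and Rpl37 from 0.0992 to 0.23. Rps14 ran from 0.19 to 0.39, Rpl8 from 0.13 to 0.31, Rpl36 from 0.30 to 0.54 and Rpl41 from 0.11 to 0.48. Limits include 3 libraries per group, low counts for 15 tested members, and 3′ sequence shared with other genes for 66 of 86 members.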
